A study of Homo sapiens with 10 samples.

Results

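The MHC class II genes and their transactivator CIITA were read in mantle cell lymphoma cells that resist the proteasome inhibitor bortezomib and in the matched cells of the same lines. The set held 10 genes, namely the antigen-presenting chains HLA-DRA, HLA-DRB1, HLA-DPA1, HLA-DPB1, HLA-DQA1 and HLA-DQB1, the peptide exchange factor HLA-DMA and HLA-DMB, the invariant chain CD74, and CIITA. They were chosen by gene symbol among 19775 genes with a probe set of 1 symbol on the array, and they had 26 such probe sets. All 10 genes were among the 14529 genes kept for the test, through 24 of the 26 probe sets.

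Messenger RNA was measured on 10 Affymetrix arrays of HBL2 and JEKO, established cell lines of mantle cell lymphoma, a tumour of mature B cells. The groups were HBL2 BR (3 arrays), HBL2 PT (3 arrays), JEKO BR (2 arrays) and JEKO PT (2 arrays), all from cells in the logarithmic phase of growth. BR marks the cells in which bortezomib had induced resistance, and PT is taken to be the parental cells, which is background knowledge and not in the labels. The labels name no dose, duration or number of clones, nor do they say that replicates came from separate cultures. The p-values therefore cover the spread between these samples and no more, and that spread may be technical.

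Class II molecules are paired alpha and beta chains that carry peptides from the endosomes to the cell surface, where helper T cells read them. The invariant chain CD74 blocks the peptide groove during assembly, and HLA-DM removes its last fragment so that a peptide can bind. CIITA binds no DNA itself but is recruited to the X and Y boxes of class II promoters by the RFX, CREB and NF-Y factors. Mature B cells express these genes constitutively, and the repressor PRDM1 silences CIITA as B cells become plasma cells.

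Promoter sequence is shown for members whose RNA levels fell together in HBL2 BR cells, to show what their start regions share. RefSeq promoters (GRCh38.p14) of 300 bases, 250 before and 50 after the start, were at hand for 8 of the 10 members. HLA-DRA and CIITA were the 2 others. HLA-DPA1 has 2 entries, so the 8 genes had 9 promoters, and a gene counts as matched where either entry matches. Each run below is a window of 62 bases, 5′ to 3′ on the gene's own strand. Capitals mark CNAGNNAC, a short form of the X box chosen after the promoters were read, and the nearest Y box, written ATTGG or, on the other strand, CCAAT.
HLA-DRB1 (chr6:32589876-32589937, minus strand): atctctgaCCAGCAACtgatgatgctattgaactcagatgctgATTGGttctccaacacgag
HLA-DQA1 (chr6:32637294-32637355, plus strand): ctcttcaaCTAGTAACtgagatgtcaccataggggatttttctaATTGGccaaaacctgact
HLA-DQB1 (chr6:32666727-32666788, minus strand): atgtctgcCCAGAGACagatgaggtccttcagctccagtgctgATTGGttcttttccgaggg
HLA-DMA (chr6:32953159-32953220, minus strand): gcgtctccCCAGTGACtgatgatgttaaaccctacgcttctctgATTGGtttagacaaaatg
HLA-DMB (chr6:32941065-32941126, minus strand): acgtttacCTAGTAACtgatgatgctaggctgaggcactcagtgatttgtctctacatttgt
HLA-DPB1 (chr6:33075849-33075910, plus strand): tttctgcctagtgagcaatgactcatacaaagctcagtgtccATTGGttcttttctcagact
HLA-DPA1, the entry with a match (chr6:33073697-33073758, minus strand): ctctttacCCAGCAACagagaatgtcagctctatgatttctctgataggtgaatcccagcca
CD74 (chr5:150412940-150413001, minus strand): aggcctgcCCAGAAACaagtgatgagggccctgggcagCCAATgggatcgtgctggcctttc

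CNAGNNAC lay in the gene sense in 7 of the 9 member promoters, all but that of HLA-DPB1 and 1 of the 2 of HLA-DPA1, against 21.3% of 35116 RefSeq promoters. CNAGNNAC followed by ATTGG with 15 to 30 bases between them was found in HLA-DRB1, HLA-DQA1, HLA-DQB1 and HLA-DMA, at 27, 28, 27 and 28 bases. Of all promoters, 95 (0.271%) held that arrangement, 4 of them of members. CNAGNNAC, and so any arrangement built on it, was chosen after these promoters were read. The shares therefore describe the member promoters and are no test of them. In CD74 the gap to CCAAT was 22 bases, and in HLA-DMB and HLA-DPA1 no Y box lay in the window shown.

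A longer X box consensus of 14 letters, searched on both strands like the motifs that follow, matched 1 of the 8 members, HLA-DMB, and 0.954% of all promoters. That consensus followed by ATTGG within 30 bases was found in 14 of 35116 promoters (0.0399%) and in no member. The Y box CCAAT matched 7 members and 34.6% of all promoters, and the X2 box TGACG, whose matches in members overlapped no other motif's, matched 4 members and 24.6%. The octamer ATTTGCAT matched 0 members and 1.77% of promoters, and the GC box GGGCGG matched 2 members and 45%. A match is a description of letters in these windows and not a measured binding site.

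Values are the deposited scores, which run 0 to 4.99 on every array, with 0.73 as the median and 2.46 as the 98th percentile. They depend only on a probe set's rank on its array, and they look logarithmic with no base stated, so changes are differences in deposited units. For each gene the probe set with the highest mean over the 10 arrays is its main one, and levels are not compared between genes. Changes were called where limma's p-value, after Benjamini-Hochberg adjustment over the 14529 genes, was under 0.05. Values after ± are standard deviations beside a mean and standard errors beside a change.

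The B cell identity of the cells was read from their markers, and 7 of the 9 B cell markers measured lay above the median on all arrays. MS4A1 (CD20), CD79A and PAX5 lay at or above the 95th percentile of every array. Of the mantle cell lymphoma markers, CCND1, the cyclin D1 gene that is overexpressed in this tumour, lay at percentile 98.1 or above. SOX11 lay at percentiles 80.5 to 95.6, but CD5 at 20.3 to 71.2, so not above the median on every array. CR2, the complement receptor CD21, missed the filter (percentiles 1.9 to 57.8), and BLK, a B cell kinase, averaged 0.42 in HBL2 BR, 1.33 in HBL2 PT, 1.39 in JEKO BR and 1.67 in JEKO PT. None of the 8 T and NK cell markers or of the 9 monocyte, macrophage and dendritic cell markers measured lay above the median on all arrays. However, CD247, the zeta chain of the T cell receptor complex, was high in JEKO, at 1.90 and 2.02 in JEKO BR and 1.73 and 1.86 in JEKO PT, and averaged 0.61 in HBL2 BR and 0.59 in HBL2 PT. Of the 7 epithelial and stromal markers, 3 lay above the median on all arrays. They were VIM (percentiles 96.4 to 99.3), COL1A1 (66.2 to 75.5) and PECAM1 (58.1 to 87.7). The correlation of arrays within a group was 0.932 to 0.958. The beta-actin control, 5′ probe set minus 3′ probe set, reflects RNA quality and was -0.69 to -1.04 in HBL2 BR, -0.58 to -1.25 in HBL2 PT, -0.76 to -1.01 in JEKO BR and -0.70 to -0.82 in JEKO PT.

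Transcripts of nearly all members were lower in HBL2 BR than in HBL2 PT cells. Of the 10 members, 9 fell and CIITA was not called, while 6.86% of all genes tested fell in the same comparison. The median change of the members was -0.64 units, against -0.00099 over all genes. All 3 BR arrays lay below all 3 PT arrays for 10 of 10 members, an arrangement found for 14.5% of all genes.

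HLA-DRA encodes the alpha chain shared by all HLA-DR molecules. Its score was 2.33, 2.52 and 2.55 on the HBL2 BR arrays and 2.98, 3.06 and 3.30 on the HBL2 PT arrays. Every BR array was below every PT array, and HLA-DRA fell by 0.65 ± 0.078 units (adjusted p = 3.05e-05). It still lay at a median percentile of 98.2 in HBL2 BR, against 99.3 in HBL2 PT, so it stayed among the highest-ranked probe sets in both.

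HLA-DRB1 encodes the main polymorphic beta chain of HLA-DR. It scored 1.78, 1.81 and 2.10 in HBL2 BR and 2.91, 2.71 and 2.90 in HBL2 PT. The groups were separated by more than the range within either, and the change was -0.94 ± 0.082 units (adjusted p = 9.27e-07). Its median percentile was 91.8 in BR and 99.1 in PT.

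HLA-DPA1 and HLA-DPB1 encode the 2 chains of HLA-DP. HLA-DPA1 scored 1.41, 1.61 and 1.90 in HBL2 BR and 2.58, 2.54 and 2.61 in HBL2 PT, with a change of -0.94 ± 0.095 units (adjusted p = 4.09e-06). Its PT arrays were close together (2.58 ± 0.034, SD, n = 3), and its BR arrays spread more widely (1.64 ± 0.25, n = 3). HLA-DPB1 scored 1.65, 1.72 and 1.99 in HBL2 BR and 2.68, 2.49 and 2.64 in HBL2 PT, and it fell by 0.82 ± 0.085 units (adjusted p = 6.54e-06). The groups did not overlap for either chain.

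HLA-DQA1 and HLA-DQB1 encode the chains of HLA-DQ. HLA-DQA1 scored 0.72, 0.49 and 1.04 in HBL2 BR and 2.07, 2.0 and 2.15 in HBL2 PT. This was the largest fall among the members' main probe sets, -1.33 ± 0.15 units (adjusted p = 1.76e-05), and its median percentile was 49 in BR, near the middle of the array, against 95.4 in PT. HLA-DQB1 scored 0.97, 0.94 and 1.23 in HBL2 BR and 1.61, 1.66 and 1.76 in HBL2 PT, a change of -0.63 ± 0.077 units (adjusted p = 3.05e-05). BR and PT arrays were apart for both genes.

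HLA-DMA and HLA-DMB form the peptide exchange factor. HLA-DMA scored 1.27, 1.29 and 1.39 in HBL2 BR and 1.94, 1.90 and 1.53 in HBL2 PT. The groups did not overlap, but the third PT array was nearer to the BR arrays than to the other PT arrays, and the change was -0.48 ± 0.092 units (adjusted p = 0.00223). HLA-DMB scored 1.29, 1.37 and 1.54 in HBL2 BR and 1.92, 1.93 and 2.10 in HBL2 PT, and it fell by 0.58 ± 0.072 units (adjusted p = 4.01e-05).

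CD74 encodes the invariant chain. Its score was 2.37, 2.44 and 2.70 in HBL2 BR and 3.34, 3.12 and 2.95 in HBL2 PT. The change was -0.63 ± 0.092 units (adjusted p = 0.000212), and CD74 kept a median percentile of 97.9 in BR, against 99.4 in PT.

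CIITA, the transactivator, showed the smallest difference of the 10. It scored 1.0, 1.02 and 1.03 in HBL2 BR and 1.11, 1.07 and 1.21 in HBL2 PT. The arrays did not overlap, but the difference of -0.11 ± 0.081 units did not pass the test (adjusted p = 0.473, 95% interval -0.28 to 0.064). That interval holds no difference as large as the change of any other member. Its median percentile was 69 in BR and 72.4 in PT on this probe set.

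HBL2 BR replicate 3 had the highest score of the 3 HBL2 BR arrays for 10 of 10 members, and it also had the lowest beta-actin control value of that group. The mean over the members' main probe sets was 1.75 on that array, against 1.48 and 1.52 on the other 2 BR arrays, and 2.31, 2.25 and 2.32 on the HBL2 PT arrays. Of the 10 members, 9 were still called lower without that array. The mean score of the 9 B cell markers measured moved with the class II genes, at 1.66 to 1.87 in HBL2 BR and 2.07 to 2.19 in HBL2 PT. Of the 8 B cell markers tested, 5 fell, against 6.86% of all genes. The mean score of the 7 plasma cell markers was 1.61 to 1.71 in HBL2 BR and 1.59 to 1.64 in HBL2 PT, with members called in both directions. SDC1 (syndecan 1), CD38, PRDM1 and XBP1 rose by 0.39, 0.36, 0.38 and 0.21 units, and JCHAIN, the joining chain of secreted immunoglobulins, fell by 1.08 units, at means of 1.38 in HBL2 BR and 2.46 in HBL2 PT. In JEKO 1 of the 7 was called higher and 1 lower, against 2.56% and 1.72% of all genes. JEKO BR and PT means were 1.13 and 0.63 for SDC1, 1.04 and 0.9 for PRDM1, and 1.56 and 1.31 for XBP1. They were 0.69 and 1.0 for CD38 and 2.0 and 2.38 for JCHAIN.

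The 9 monocyte, macrophage and dendritic cell markers averaged 0.41 to 0.49 in HBL2 BR and 0.55 to 0.73 in HBL2 PT and CD14 lay at percentiles of 2.1 to 20.2 over the 10 arrays. Of the 4 tested, 2 fell, against 6.86% of all genes. LYZ (lysozyme) averaged 0.34 in HBL2 BR and 0.93 in HBL2 PT, and CD1C averaged 0.52 in HBL2 BR and 1.12 in HBL2 PT. The part of these differences in the class II result was not tested. In bulk RNA, fewer cells with class II transcripts and less class II RNA per cell cannot be told apart.

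**Figure D1:**
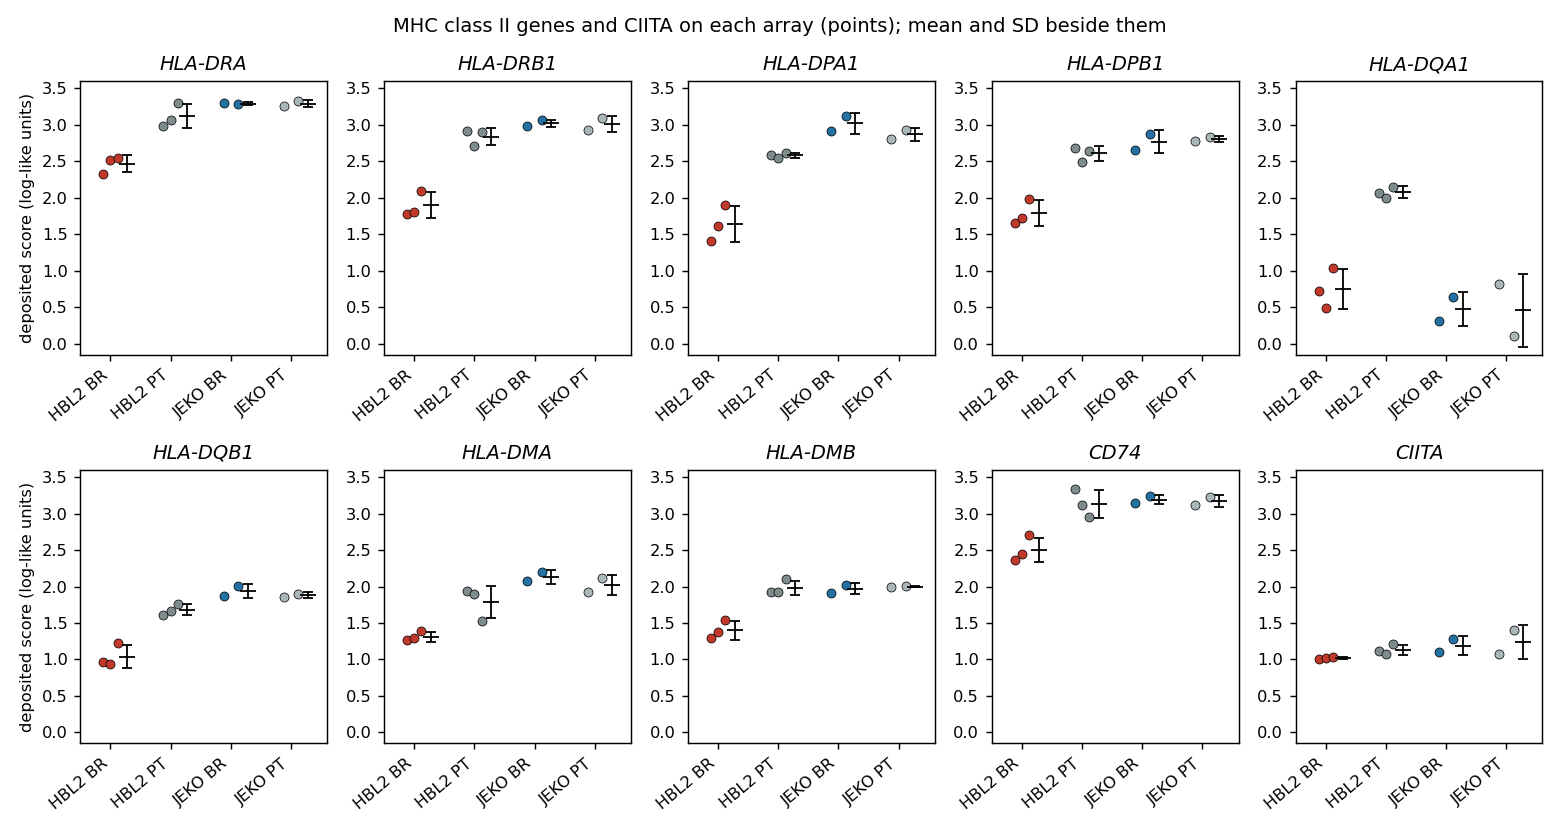
Each panel plots the deposited score of a member's main probe set on every array (points) with the group mean and SD (bars) for HBL2 BR, HBL2 PT, JEKO BR and JEKO PT. The HBL2 BR points lie below the HBL2 PT points in all 10 panels, by 1.33 units in the mean for HLA-DQA1 and by 0.11 units for CIITA, while the JEKO BR and JEKO PT points overlap.

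In JEKO, no member was called in either direction. Of all genes tested, 4.28% were called in JEKO BR against JEKO PT, 2.56% higher and 1.72% lower. The members' differences ran between -0.053 (CIITA) and 0.15 units (HLA-DPA1) with a median of 0.012, equal to that over all genes, and adjusted p-values were 0.555 to 0.999. At an unadjusted p under 0.05 the count was 0 as well.

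HLA-DRA scored 3.30 and 3.28 in JEKO BR and 3.26 and 3.33 in JEKO PT, with a 95% interval of -0.20 to 0.20 for the difference. HLA-DRB1 scored 2.99 and 3.06 in JEKO BR and 2.93 and 3.09 in JEKO PT (-0.20 to 0.23). CD74 scored 3.15 and 3.24 in JEKO BR and 3.11 and 3.23 in JEKO PT (-0.21 to 0.26). For these 3 genes the BR and PT arrays were interleaved, and the intervals leave out falls of the size measured in HBL2.

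HLA-DPA1 scored 2.92 and 3.12 in JEKO BR and 2.81 and 2.93 in JEKO PT, with an interval of -0.093 to 0.40. HLA-DPB1 scored 2.66 and 2.88 in JEKO BR and 2.78 and 2.84 in JEKO PT (-0.27 to 0.17). HLA-DQB1 scored 1.87 and 2.01 in JEKO BR and 1.85 and 1.90 in JEKO PT (-0.13 to 0.26). The groups overlapped for each of them.

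HLA-DMA scored 2.07 and 2.20 in JEKO BR and 1.92 and 2.12 in JEKO PT (interval -0.12 to 0.35). HLA-DMB scored 1.91 and 2.02 in JEKO BR and 2.0 and 2.01 in JEKO PT (-0.22 to 0.15). CIITA scored 1.10 and 1.28 in JEKO BR and 1.08 and 1.41 in JEKO PT (-0.26 to 0.16). Again the groups, of 2 arrays each, overlapped for each of these genes.

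HLA-DQA1 stood apart in level. It scored 0.31 and 0.64 in JEKO BR and 0.82 and 0.11 in JEKO PT, at median percentiles of 25.4 and 29.7, below the array median in both groups. The interval of the difference was -0.38 to 0.41 with widely spread arrays in both groups, so a fall or a rise of that size could not be seen.

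The change itself differed between the lines. The HBL2 change minus the JEKO change was negative past the threshold for 9 of the 10 members, against 5.76% of all genes, with a median of -0.68 over the members and -0.011 over all genes. HLA-DPA1 differed by -1.10 units (adjusted p = 0.000243), HLA-DRB1 by -0.95 (adjusted p = 0.000246) and HLA-DPB1 by -0.77 (adjusted p = 0.00184). HLA-DQA1 differed by -1.34 units (adjusted p = 0.0022), HLA-DQB1 by -0.70 (adjusted p = 0.00172) and HLA-DRA by -0.65 (adjusted p = 0.0036). JEKO PT scored only 0.82 and 0.11 on the main HLA-DQA1 probe set, and scores stop at 0. A fall of 1.33 units, as in HBL2, was therefore not possible there.

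For the accessory chains the difference between the lines was -0.65 units for CD74 (adjusted p = 0.00985), -0.59 for HLA-DMA (adjusted p = 0.0172) and -0.55 for HLA-DMB (adjusted p = 0.00662). CIITA was not called (-0.055, adjusted p = 0.864). With a gene's median over its probe sets, 6 members were called, since HLA-DQA1 (-0.19, adjusted p = 0.48), HLA-DQB1 (-0.37, adjusted p = 0.07) and CD74 (-0.12, adjusted p = 0.585) missed the threshold. With scores replaced by percentile ranks, 5 members were called, and without the probe sets that end in _x_at or _s_at, 5 of the 8 members that could then be tested. Without JEKO PT replicate 1, CD74 and HLA-DMA missed the threshold (adjusted p = 0.0645 and 0.111), and without JEKO BR replicate 2 so did CD74, HLA-DMA and HLA-DMB (0.0641, 0.108 and 0.0507).

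**Figure D2:**
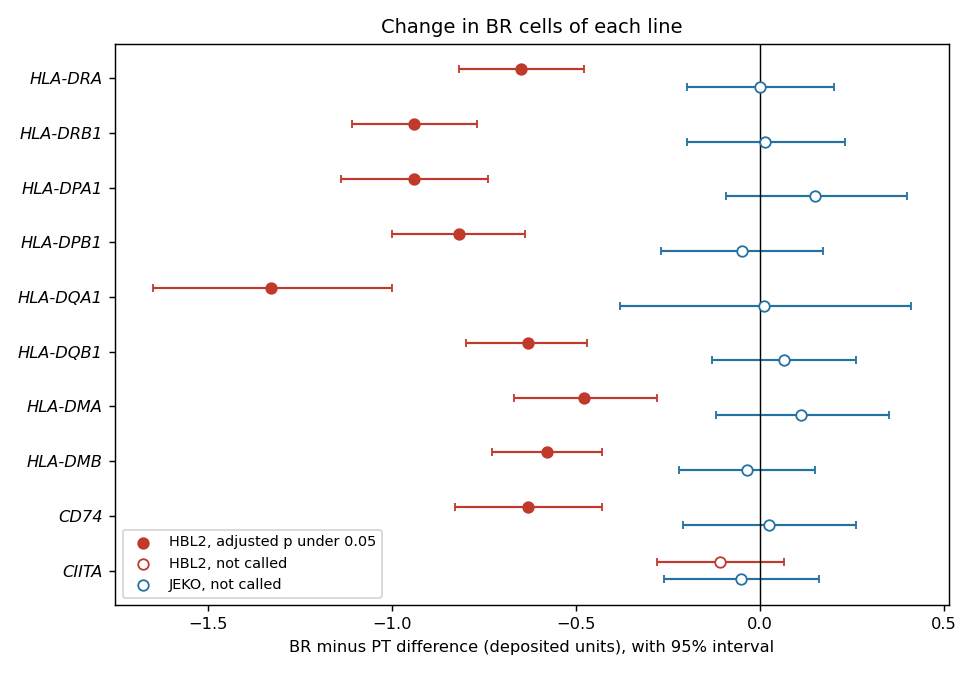
The BR minus PT difference of each member's main probe set is plotted in deposited units with its 95% interval for HBL2 and JEKO. In HBL2 9 of the 10 intervals lie wholly below 0 and that of CIITA includes 0, while all 10 JEKO intervals include 0.

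The PT cells of the lines were compared to see how the members stood without resistance. Between HBL2 PT and JEKO PT, 1 member was called higher and 0 lower, against 13.9% and 9.25% of all genes. That member was HLA-DQA1, at 2.08 ± 0.076 (SD, n = 3) in HBL2 PT and 0.46 ± 0.50 (n = 2) in JEKO PT, a difference of 1.61 ± 0.17 units (adjusted p = 4.44e-06). The other 9 members were lower in HBL2 PT by amounts that missed the threshold, between -0.29 for HLA-DPA1 (adjusted p = 0.0589) and -0.018 for HLA-DMB. This count depended on the settings and reached 6 called members, 1 higher and 5 lower, with array weights.

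Between the resistant cells of both lines, 8 of the 10 members were lower in HBL2 BR than in JEKO BR, against 14.1% of all genes, with a median difference of -0.82 units over the members and 0.006 over all genes. HLA-DPA1 averaged 1.64 ± 0.25 in HBL2 BR (SD, n = 3) and 3.02 ± 0.14 in JEKO BR (n = 2), a difference of -1.39 units. HLA-DRB1 averaged 1.90 ± 0.18 in HBL2 BR and 3.02 ± 0.048 in JEKO BR, a difference of -1.12 units. Neither HLA-DQA1 (0.27, adjusted p = 0.26) nor CIITA (-0.17, adjusted p = 0.182) was called.

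Ordered by mean score, HBL2 BR was the lowest of the 4 groups for 9 members, and for HLA-DQA1 it lay below HBL2 PT and above both JEKO groups. For the 8 members other than HLA-DQA1 and CIITA, the step to HBL2 BR was past the threshold, and the other steps that were fitted were not. For HLA-DQA1 the step between HBL2 PT and HBL2 BR passed, and for CIITA no fitted step did.

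The members' probe sets gave more than 1 view of several genes. Of the 24 past the filter, 17 fell in HBL2 BR against HBL2 PT and 7 were not called, in a fit of 27577 probe sets of which 4.62% fell. In JEKO 0 of the 24 were called by limma, against 1.12% lower and 1.41% higher of all probe sets. Unadjusted, 3 had p under 0.05, and all 3 were lower in JEKO BR. They were HLA-DQA1 236203_at (-0.44 units, adjusted p = 0.235), CIITA 211884_s_at (-0.36, adjusted p = 0.329) and HLA-DPA1 213537_at (-0.21, adjusted p = 0.292). On 236203_at the 2 lines did not differ in their change (0.018, adjusted p = 0.978). For the HBL2 change minus the JEKO change, 14 were called lower, against 3.55% of all probe sets.

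Both probe sets of HLA-DRA fell in HBL2 BR, the second by 0.62 units, and all 3 of HLA-DPA1 did, the smallest change being -0.54. Both of HLA-DPB1 were called, although 244485_at fell by only 0.27 units (adjusted p = 0.0354). Of the 6 for HLA-DQB1, 5 were called. The exception, 209480_at, differed by -0.23 units (adjusted p = 0.268), and it is the only one of the 6 without the _x_at ending that marks probes shared with other transcripts.

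HLA-DQA1 was called by 1 of 3 probe sets. The others, 203290_at and 236203_at, differed by -0.26 (adjusted p = 0.247) and -0.43 units (adjusted p = 0.0902). CD74 was called by 1 of 2, since 1567628_at differed by 0.04 units (adjusted p = 0.81). With a gene's median over its probe sets in place of its highest one, the CD74 difference was therefore 0.04 units (adjusted p = 0.792), and that of HLA-DQA1 was -0.36 units and still called.

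None of the 3 CIITA probe sets was called. Their differences in HBL2 were -0.11 for 205101_at, 0.0081 for 210925_at (adjusted p = 0.978) and -0.025 for 211884_s_at (adjusted p = 0.952). On 210925_at the scores were 0.59, 0.68 and 0.93 in HBL2 BR and 0.72, 0.76 and 0.70 in HBL2 PT, so the groups overlapped around the array median. On 211884_s_at they were 0.39, 0.50 and 0.62 in HBL2 BR and 0.28, 0.53 and 0.78 in HBL2 PT, again overlapping.

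Levels of HLA-DQB1 in the PT cells depended on the probe set. Of the 24 single-symbol probe sets, 3 were higher and 3 lower in HBL2 PT than in JEKO PT, against 10.1% and 8.06% of all probe sets. Against JEKO PT, HBL2 PT was higher on 209480_at (0.67, adjusted p = 0.00158) and 212999_x_at (0.43, adjusted p = 0.0032). It was lower on 211656_x_at (-0.51, adjusted p = 0.000344) and 209823_x_at (-0.50, adjusted p = 0.00632). In HBL2 BR minus PT all 6 differences were negative.

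HLA-DQA1 showed a similar split through a probe set that the annotation gives to HLA-DQA2 and HLA-DQA1 together. On 212671_s_at the scores were 0.73, 0.86 and 1.15 in HBL2 BR, 2.32, 2.30 and 2.49 in HBL2 PT, 2.68 and 2.78 in JEKO BR, and 2.57 and 2.62 in JEKO PT. JEKO was thus high on this probe set and low on the main HLA-DQA1 probe set. HBL2 BR minus PT was -1.46 ± 0.09 units (adjusted p = 6.54e-08), JEKO BR minus PT was 0.13 (adjusted p = 0.629), and HBL2 PT minus JEKO PT was -0.23 (adjusted p = 0.14). Which of the relatives, or which alleles, each probe set reads in each line was not tested.

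The other 3 probe sets past the filter that name a member with other class II genes, all with an HLA-DRB symbol, fell in HBL2 BR by 0.80 to 0.98 units and were not called in JEKO. In the fit that held them, 4.65% of probe sets fell in HBL2. HLA genes are close relatives and highly variable between people, so a probe set can bind more than its named gene.

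**Figure D3:**
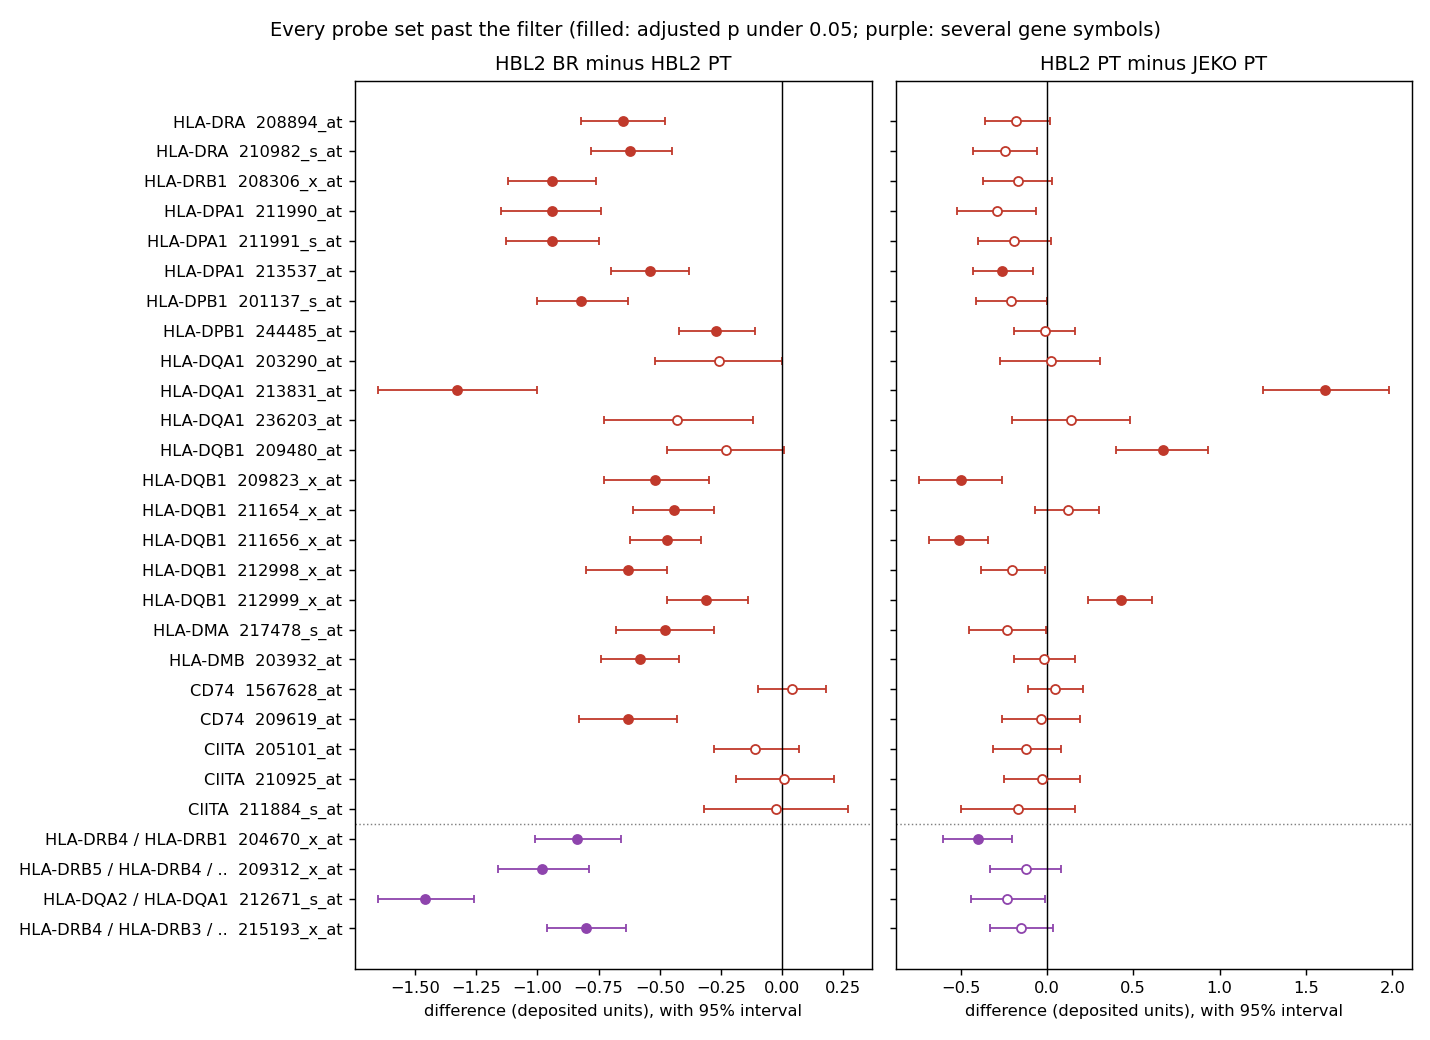
Differences in deposited units with 95% intervals are plotted for every member probe set past the filter, HBL2 BR minus HBL2 PT on the left and HBL2 PT minus JEKO PT on the right, with filled points at adjusted p under 0.05 and probe sets of several gene symbols in purple. In HBL2 17 of the 24 single-symbol probe sets are filled and negative, whereas HBL2 PT minus JEKO PT holds both directions for HLA-DQB1.

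Over the 10 arrays, the 8 members other than HLA-DQA1 and CIITA correlated with each other at Pearson's r of 0.81 (HLA-DMA with HLA-DMB) to 0.99. CIITA correlated with these 8 at r of 0.60 (CD74) to 0.70 (HLA-DRA among others). HLA-DQA1 followed another pattern, with r of 0.02 with HLA-DPA1, 0.04 with HLA-DQB1 and -0.12 with HLA-DMA. These points share 4 groups, so r mostly follows the group means. Outside the members, the genes most like HLA-DRA over the 10 arrays were AFF3 (r = 0.983), RNF144B (0.982), TEAD2 (0.982), HERPUD1 (0.980) and DYNC1I2 (0.979). Those most like HLA-DQA1 were TAP1 (0.977), IL5RA (0.970), LINC03014 (0.968), PLBD1 (0.965) and SP140 (0.960). Those most like CIITA, whose scores span little, were CMBL (0.923), ZNF182 (0.911), TNK2 (0.888), SFTPB (0.886) and SLC35E1 (0.882).

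Further class II genes moved with the members in HBL2. Of 5 tested, 3 fell in HBL2 BR, against 6.86% of all genes, with a median change of -0.46. In JEKO 0 were called by limma, and 0 had an unadjusted p under 0.05. HLA-DRB4, another DR beta chain, fell by 0.78 units (adjusted p = 6.62e-05), with scores of 0.88, 1.12 and 1.41 in HBL2 BR and 2.06, 1.92 and 1.77 in HBL2 PT. HLA-DOA, a chain of the HLA-DO protein that restrains HLA-DM, fell by 0.51 units (adjusted p = 0.000396), with 0.71, 0.57 and 0.79 in HBL2 BR and 1.29, 1.09 and 1.21 in HBL2 PT. The BR arrays lay below the PT arrays for both.

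The pseudogene HLA-DRB6 fell by 0.46 units (adjusted p = 0.000558). HLA-DPB2, also a pseudogene, and HLA-DOB, the partner chain of HLA-DOA, differed by -0.39 (adjusted p = 0.0534) and -0.18 units (adjusted p = 0.0834). Their BR and PT arrays did not overlap either.

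Of the factors that bind class II promoters, 1 of 7 fell in HBL2 BR and 0 rose, against 6.86% and 4.91% of all genes. In JEKO limma called 0, with 1 at an unadjusted p under 0.05. CREB1, which binds the X2 box, scored 1.52, 1.38 and 1.41 in HBL2 BR and 1.87, 1.93 and 1.93 in HBL2 PT. It fell by 0.47 ± 0.071 units (adjusted p = 0.00026), and its change differed between the lines by -0.46 units (adjusted p = 0.0164). The 3 subunits of RFX differed by -0.0094 (RFX5), -0.046 (RFXAP) and 0.074 units (RFXANK), and the 3 of NF-Y by -0.027 (NFYA), 0.046 (NFYB) and -0.02 (NFYC), none of them called. RFX5 scored 2.46, 2.43 and 2.51 in HBL2 BR and 2.50, 2.43 and 2.51 in HBL2 PT, at nearly the same level.

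None of 11 coactivators and chromatin regulators was called by limma in HBL2 or in JEKO, and 2 and 1 of them had an unadjusted p under 0.05. Of all genes, 4.91% rose and 6.86% fell in HBL2, and 4.28% were called in JEKO. With 11 genes, a count of 0 is not far from those shares. For the change in HBL2 minus that in JEKO, 1 of the 11 was called lower, against 5.76% of all genes. It was HDAC1, a histone deacetylase, at -0.37 units (adjusted p = 0.0128).

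Factors listed around the CIITA gene, without a check that each acts there, moved in both directions in HBL2. Of 15 tested, 4 rose and 2 fell, against 4.91% and 6.86% of all genes. In JEKO limma called 0, with 4 at an unadjusted p under 0.05. PRDM1, which represses CIITA in plasma cells, scored 1.67, 1.70 and 1.60 in HBL2 BR and 1.29, 1.26 and 1.27 in HBL2 PT, and it rose by 0.38 units (adjusted p = 0.000893). IRF4, which works with it in plasma cell differentiation, scored 2.25, 2.25 and 2.09 in HBL2 BR and 1.64, 1.76 and 1.89 in HBL2 PT, and it rose by 0.43 units (adjusted p = 0.00104). The groups did not overlap for either gene.

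XBP1, the transcription factor of the secretory program, and MYB, a factor of immature blood cells, rose by 0.21 (adjusted p = 0.0417) and 0.31 units (adjusted p = 0.00448). IRF8, a B cell and myeloid factor, scored 1.58, 1.72 and 1.84 in HBL2 BR and 2.15, 2.12 and 2.06 in HBL2 PT, and it fell by 0.39 units (adjusted p = 0.000651). SPI1 (PU.1), a partner of both IRF factors, fell by 0.29 units (adjusted p = 0.025). PAX5, the B cell identity factor, differed by -0.18 units and was not called (adjusted p = 0.217).

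In JEKO PRDM1 scored 0.95 and 1.12 in BR and 0.83 and 0.97 in PT (difference 0.14, adjusted p = 0.42). IRF4 scored 2.18 and 2.21 in JEKO BR and 1.82 and 2.05 in JEKO PT (0.25, adjusted p = 0.15). PRDM1 overlapped between the JEKO groups and IRF4 did not, with only 2 arrays a group. Of these 15 factors the change differed between the lines past the threshold for TCF3 alone (-0.39, adjusted p = 0.0317), which encodes the E proteins E12 and E47. Of all genes, 5.76% were called lower in that comparison. The changes of PRDM1, IRF4, IRF8 and SPI1 were thus not shown to differ between the lines.

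**Figure D4:**
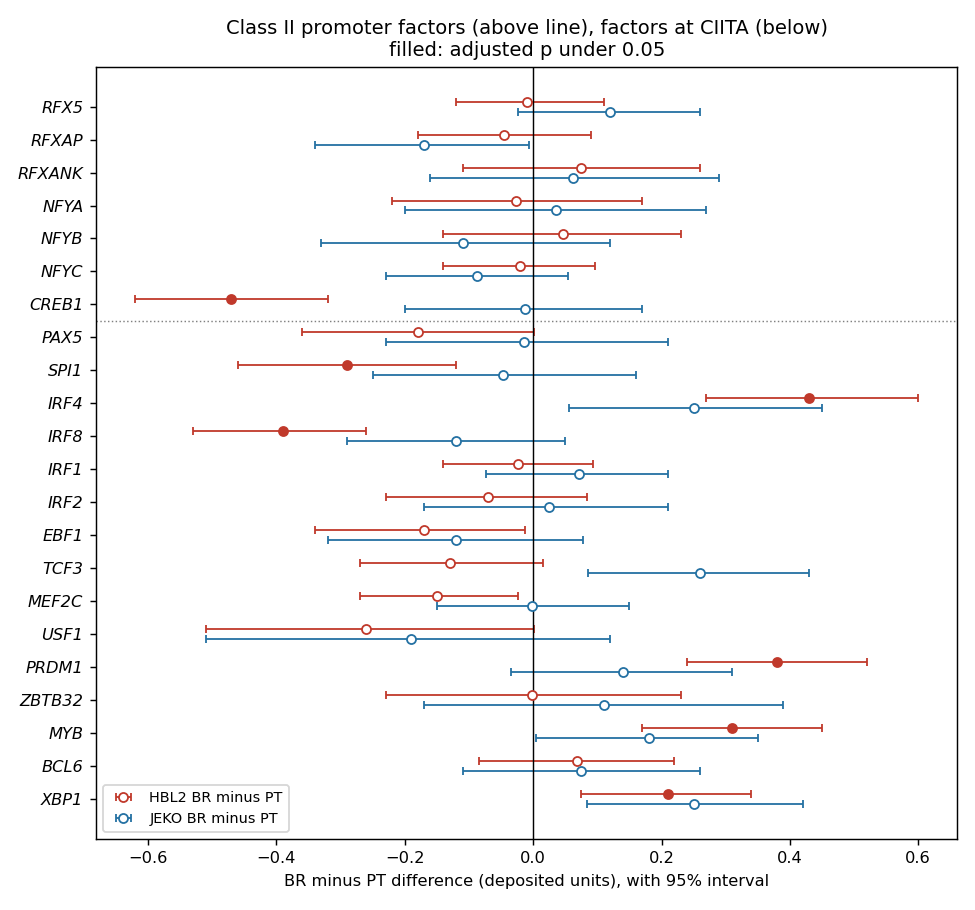
BR minus PT differences in deposited units with 95% intervals are plotted for HBL2 and JEKO. They cover the 7 class II promoter factors and the 15 factors listed around the CIITA gene. In HBL2 CREB1, IRF8 and SPI1 are called lower and IRF4, PRDM1, MYB and XBP1 higher, whereas 0 are called in JEKO.

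Of 9 interferon-gamma signalling genes, 2 fell in HBL2, against 6.86% of all genes. In JEKO limma called 0, with 2 at an unadjusted p under 0.05. NLRC5, the transactivator of class I genes and a relative of CIITA, scored 1.04, 1.12 and 1.14 in HBL2 BR and 1.55, 1.48 and 1.85 in HBL2 PT. Every BR array was below every PT array, and it fell by 0.52 units (adjusted p = 0.000507). In JEKO it scored 1.96 and 2.07 in BR and 1.66 and 1.84 in PT (0.27, adjusted p = 0.182), and its change differed between the lines by -0.79 units (adjusted p = 0.00146). IFNGR2, a receptor chain, fell by 0.30 units in HBL2 (adjusted p = 0.00561).

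Of 21 genes of class II antigen processing and turnover, 2 rose and 4 fell in HBL2, and 2 rose and 2 fell in JEKO. Of all genes, 4.91% rose and 6.86% fell in HBL2, and 2.56% rose and 1.72% fell in JEKO. In HBL2 SPPL2A, the protease that clears the last membrane stub of CD74, rose by 0.32 units (adjusted p = 0.00341). The tetraspanins CD37 and CD53 fell by 0.50 (adjusted p = 0.00511) and 0.39 units (adjusted p = 0.00026). In JEKO the endosomal protease LGMN rose by 0.49 units (adjusted p = 0.0437), and MARCHF1, a ubiquitin ligase that removes class II from the surface, fell by 0.41 (adjusted p = 0.0393). In HBL2 LGMN differed by 0.16 (adjusted p = 0.397) and MARCHF1 by -0.28 (adjusted p = 0.051), neither of them called. Uncalled in JEKO were SPPL2A (0.011, adjusted p = 0.969), CD37 (-0.32, adjusted p = 0.213) and CD53 (0.22, adjusted p = 0.102). CSTB, a cathepsin inhibitor, fell by 0.20 in HBL2 (adjusted p = 0.0346) and rose by 0.42 in JEKO (adjusted p = 0.00326), a difference of -0.62 units between the lines (adjusted p = 0.000525).

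Among 16 genes of costimulation and T cell contact, 4 rose and 3 fell in HBL2, and 3 rose and 0 fell in JEKO. The shares over all genes were 4.91% and 6.86% in HBL2, and 2.56% and 1.72% in JEKO. CD80, a ligand that costimulates T cells, scored 1.94, 2.02 and 2.06 in HBL2 BR and 0.96, 0.97 and 0.97 in HBL2 PT. It rose by 1.04 units (adjusted p = 7.57e-09), opposite to the class II chains. In JEKO it scored 1.27 and 1.23 in BR and 0.87 and 0.87 in PT and rose by 0.38 (adjusted p = 0.00675), so it was higher in the BR cells of both lines. CD48 and ICAM3, adhesion molecules that bind T cells, fell by 0.68 and 0.72 units in HBL2 and rose by 0.45 and 0.41 in JEKO.

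The chains and HLA-DM lie in one stretch of chromosome 6, and 27 other genes of that region and its flanks were tested. In HBL2 3 of these 27 fell, against 6.86% of all genes, and 0 rose, with a median of -0.10. In JEKO limma called 0, with 2 at an unadjusted p under 0.05. All 3 lie between HLA-DOB and HLA-DMB in the RefSeq gene order. They were PSMB8 (-0.37, adjusted p = 0.000432) and PSMB9 (-0.36, adjusted p = 0.00125), subunits of the immunoproteasome, and TAP1 (-0.27, adjusted p = 0.00577), a peptide transporter chain. PSMB8 scored 1.65, 1.63 and 1.61 in HBL2 BR and 1.97, 1.99 and 2.05 in HBL2 PT.

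Their neighbour TAP2, the other transporter chain, differed by -0.13 (adjusted p = 0.237). BRD2, a bromodomain gene between HLA-DMA and HLA-DOA, differed by 0.04 (adjusted p = 0.78), and so a gene without a called change lay inside the block of lowered ones. At the flanks NOTCH4 differed by -0.18 (adjusted p = 0.0968) and COL11A2 by -0.042 (adjusted p = 0.78). CD74 lies on chromosome 5, outside this region, and fell as well. Around CIITA on chromosome 16, 1 of 11 neighbours was called lower in each line, against 6.86% of all genes in HBL2 and 1.72% in JEKO. In both cases it was RMI2 (-0.22, adjusted p = 0.0328 in HBL2, and -0.38, adjusted p = 0.0125 in JEKO).

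**Figure D5:**
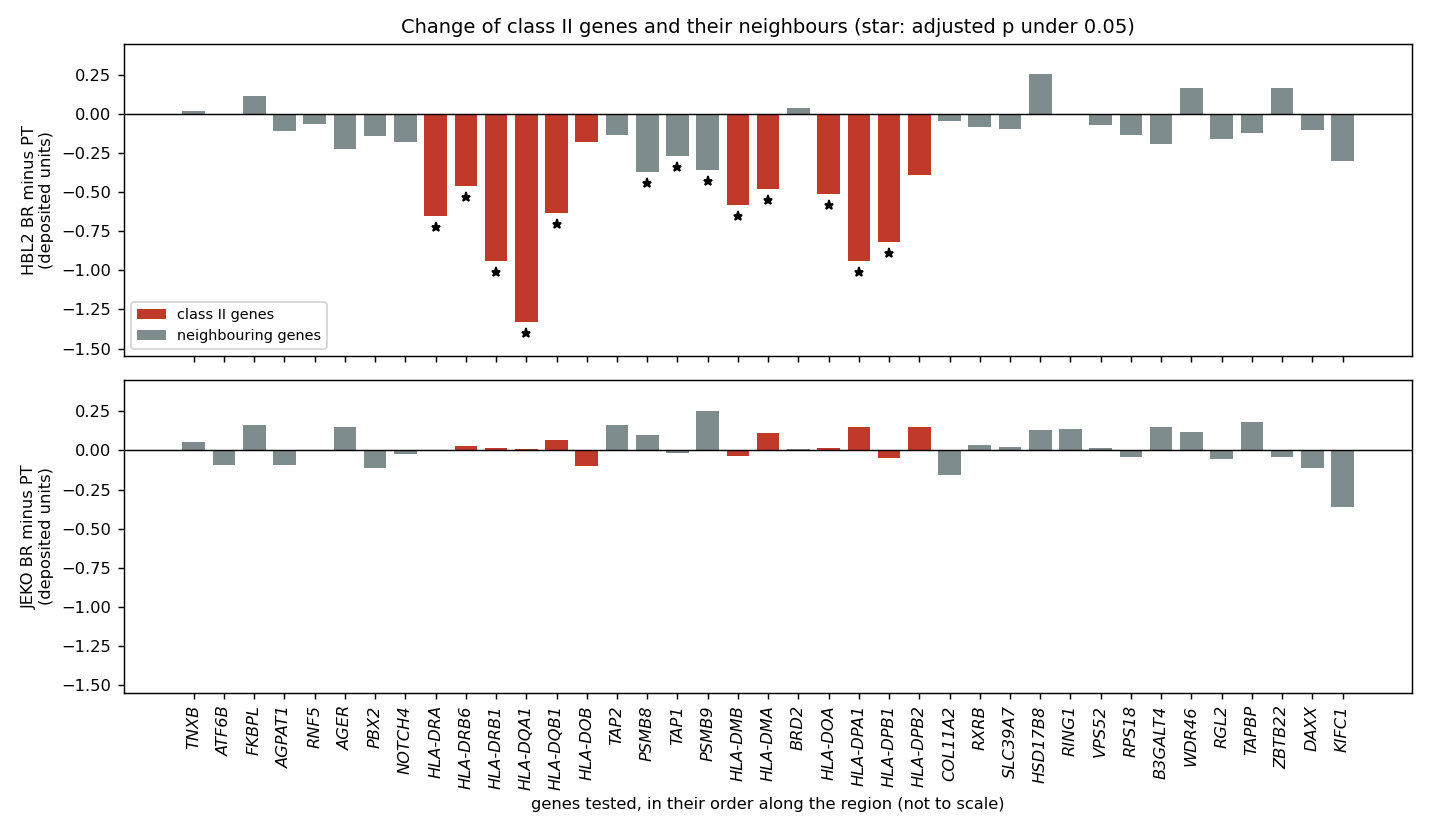
BR minus PT differences in deposited units are plotted for HBL2 (top) and JEKO (bottom), with a star at adjusted p under 0.05. The tested genes of the class II region stand in RefSeq order, with distance along the axis not to scale. In HBL2 the class II genes reach -1.33 units at HLA-DQA1, and PSMB8, PSMB9 and TAP1 lie between -0.37 and -0.27. BRD2, at 0.04, sits between lowered neighbours there, and no gene has a star in JEKO.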

How the data were processed

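RNA of HBL2 BR, HBL2 PT, JEKO BR and JEKO PT cells was hybridised to 10 Affymetrix arrays, and groups came from the sample titles. The authors deposited scores for 54675 probe sets. Per the submitters' processing notes MAS5 was used, with no version named. Later steps and the log base are not stated in those notes, the labels or the headers. The deposited score takes the same sorted values on every array (largest difference 0), so it keeps only ranks, and a shift of most genes one way cannot be seen in it. Probe sets were named from the platform annotation, in which 41091 had 1 symbol, 1801 several and 11721 none. Of these, 41037 were found in RefSeq (GRCh38.p14), and 0 symbols were updated. There were 0 columns left aside. The number of arrays limits the precision.

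Probe sets were kept that reached the 50th percentile on 2 or more arrays, and each gene was read from its highest-scoring one by mean, for 14529 genes in all. A linear model was fitted to the scores (limma 3.58.1, R 4.3.3, moderated with an intensity trend), with 4 group means, 5 two-sided comparisons, 6 residual degrees of freedom and a mean of 9.89 prior ones. Benjamini-Hochberg adjustment ran over all of these genes. The fit was tested on simulated data.

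Replicate numbers were not used as a block, since same-numbered arrays of HBL2 BR and PT deviated together at r of 0.02, 0.14 and 0.01, and those of JEKO at 0.08 and 0.08. With 2 arrays a group, the 2 JEKO values are not separate measures. Among the 10 members, however, replicate 2 scored highest for 9 in JEKO BR and for 9 in JEKO PT. Replicate 3 scored highest for 10 in HBL2 BR and for 6 in HBL2 PT. The members, the gene lists and the tests were chosen with earlier results of these data known. Named list genes were up to 4 called per comparison with the largest changes, and all factors of the promoter list. Those of the CIITA list are named in the text where called or as examples and are all in the plot of regulators. Array values of list genes, TAP2, BRD2, NOTCH4, COL11A2, LYZ, CD1C, CR2, BLK, CD247, plasma cell markers and genes that missed the threshold were chosen for display after their values were seen. So were the percentiles of SOX11, CD5, VIM, COL1A1 and PECAM1. Of the genes most like a member, the 5 with the highest r are given. The alternatives were other filters, probe set rules, scales, variance models, array weights, separate fits of HBL2 and JEKO, the replicate number as a block, a beta-actin covariate and leaving out each array. Leaving out the 3 arrays of lowest beta-actin value was added after the data were seen.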

Additional observations from a re-analysis of the deposited data

Results flagged for a closer look

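The change in bortezomib-resistant cells differed between the lines, by limma's test of the difference itself, for 9 members. The HBL2 change minus the JEKO change was -0.65 units for HLA-DRA, -0.95 for HLA-DRB1, -1.10 for HLA-DPA1, -0.77 for HLA-DPB1, -1.34 for HLA-DQA1, -0.70 for HLA-DQB1, -0.59 for HLA-DMA, -0.55 for HLA-DMB and -0.65 for CD74. With a gene's median over its probe sets the difference was -0.19 for HLA-DQA1, -0.37 for HLA-DQB1 and -0.12 for CD74, none of which passed the threshold. On the main probe sets the 3 HBL2 BR arrays lay below the 3 HBL2 PT arrays for each of the 9, as for 14.5% of all genes. The JEKO BR and JEKO PT arrays overlapped for each of the 9, and the share of all genes for this is not given. JEKO had 2 arrays a group, so overlap there and separation in HBL2 are unlike measures. On the main HLA-DQA1 probe set JEKO PT scored too low for a fall of the size measured in HBL2. What the lines differ in besides their response was not tested.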

How the results depend on the processing

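The 50 differences of the members were recomputed under up to 24 other settings, giving 1159 values, of which 1078 kept their direction and side of the threshold, 21 lost the call, 18 gained one and 42 turned sign. The count of members called in HBL2 BR against PT stayed at 9 in every setting except the median over probe sets (8), percentile ranks (8) and no _x_at or _s_at probe sets (6 of 8 tested), and that of JEKO stayed at 0 in all. In HBL2 the call was lost for HLA-DQA1 with percentile ranks (adjusted p = 0.084) and for HLA-DQB1 without _x_at or _s_at probe sets (-0.23, adjusted p = 0.252).

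The count for the HBL2 change minus the JEKO change was 5, against 9, both without _x_at or _s_at probe sets (8 members tested) and with percentile ranks, 6 with the median over probe sets (CD74, HLA-DQB1 and HLA-DQA1 lost it) and 8 with normal scores (HLA-DQA1, adjusted p = 0.147). It was 8 without a trend (HLA-DMA, adjusted p = 0.0523) and 8 without the 3 arrays of lowest beta-actin control (HLA-DMA, adjusted p = 0.15). The count for HBL2 PT against JEKO PT, 1, was 0 with the median over probe sets, 2 without _x_at or _s_at probe sets, 6 with array weights, 5 with the replicate block, 4 with the beta-actin covariate, 3 after removing the 3 arrays with the lowest beta-actin control and 1 to 2 when arrays were left out in turn, with 2 called without HBL2 PT replicate 1, HBL2 PT replicate 3, HBL2 BR replicate 1 or HBL2 BR replicate 3. The replicate block moved no other count by over 1.5 times, and not every array correlated best with its own number.

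Signs turned mostly among differences near 0. With the median over probe sets these were CD74 in HBL2 BR minus PT (0.04) and in HBL2 PT minus JEKO PT (0.049), HLA-DQA1 in HBL2 BR minus JEKO BR (-0.00089), and in JEKO HLA-DPB1 (0.0086), HLA-DQA1 (-0.16) and CIITA (0.077). Without _x_at or _s_at probe sets HLA-DQB1 was called higher in HBL2 PT than JEKO PT (0.67) and in HBL2 BR than JEKO BR (0.46), and in JEKO HLA-DPB1 was 0.065 and HLA-DQB1 -0.028. Percentile ranks gave -4.31 percentile points for HLA-DQA1 in JEKO. The beta-actin covariate gave, in JEKO, 0.025 for HLA-DRA, -0.018 for HLA-DRB1, -0.0042 for HLA-DQA1 and -0.051 for CD74. With those 3 arrays removed, JEKO gave 0.013 for HLA-DRA, -0.021 for HLA-DRB1, -0.15 for HLA-DQA1, -0.0063 for HLA-DQB1 and -0.018 for CD74. The CIITA difference between the lines was then 0.018, and HLA-DMB was 0.013 in HBL2 PT minus JEKO PT. The cause was not tested.

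With each array left out in turn, the JEKO differences ran between -0.035 and 0.034 for HLA-DRA, -0.066 and 0.092 for HLA-DRB1, -0.16 and 0.063 for HLA-DPB1, -0.34 and 0.37 for HLA-DQA1, -0.0063 and 0.14 for HLA-DQB1, -0.09 and 0.019 for HLA-DMB, -0.036 and 0.086 for CD74 and -0.22 and 0.11 for CIITA. HBL2 PT minus JEKO PT ran between -0.075 and 0.013 for HLA-DMB, -0.14 and 0.058 for CD74 and -0.28 and 0.048 for CIITA, and the CIITA difference between the lines between -0.22 and 0.11. A JEKO group of 1 array was assumed to vary like the others.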
